A study of Zea mays with 20 samples.

Results

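One dose of the dominant maize allele Kn1-N was compared with none in young leaves. The comparison took every gene of 2 heterozygous libraries (Kn1-N/+) and of 2 libraries from their wild-type relatives (+/+), 4 of the 20 libraries of the study. Another 2 libraries from Kn1-N/Kn1-N homozygotes entered the same fit and give the level at the full dose. All 6 leaf libraries carry the label inbred B73 and came from greenhouse plants 10 days after germination, with 2 leaves visible. From each plant a tube of immature leaf was cut, 7 to 8 mm long and 1 to 2 mm wide, beginning 2 to 3 mm above the shoot apical meristem (SAM). The study's design calls the 2 libraries of a genotype biological replicates, and the labels do not say how many plants each one pooled. The remaining 14 libraries are of the loss-of-function allele kn1-e1 in tassel primordia, ear primordia and the SAM, with controls whose genotype label reads kn1-e1/+. The SAM samples are labelled with a greater age in days than the leaf samples. Leaf and SAM levels thus differ in age as well as in tissue. For tassel and ear no age in days was at hand, so their levels may differ from leaf in age too.

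The gene kn1 encodes KNOTTED1, a homeobox transcription factor of the KNOX class that is made in shoot meristems, where it helps to keep cells undetermined. It is normally silent in developing leaves. Dominant Knotted1 alleles are known for kn1 transcript in leaf blades, along the lateral veins, where outgrowths called knots form and ligule tissue is displaced. KNOX proteins act on other transcription factor genes and on the genes of several plant hormones.

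The 4 libraries held 18922133 to 20670084 counts, and the homozygous libraries 16542370 and 20599373. Photosynthesis markers set leaf apart from the meristem tissues, the meristem list did so only in part, and 2 lateral organ genes did not. The summed level of 10 photosynthesis genes was 674 to 889 CPM (a gene's count as a share of its library, set to a common total and scaled by TMM) in the heterozygous and wild-type libraries and at most 23.5 CPM in the control meristem tissues. The summed level of 10 meristem genes was 200.1 to 219 CPM in those 4 leaf libraries, above the 178 and 180 CPM of control SAM and below control tassel and ear (497 to 582 CPM). Most of the leaf sum was fea3, at 193 CPM in wild-type leaf and 7.67 CPM in control SAM, while gnarley1 held 0.0277 and 37.2 CPM. bd1 and ra1 had 0 counts in all 6 leaf libraries and were at 0 in control SAM too. The lateral organ genes yab14 and yabby15 summed to 39.42 and 45.55 CPM in wild-type leaf and 63.83 and 70.66 CPM in heterozygous leaf. Their sum was higher in control SAM (152.7 and 162.7 CPM) and control ear (178.4 and 169 CPM). In control tassel it was 55.61 to 63.26 CPM. The members of a pair were not alike in those photosynthesis genes. Heterozygote library 1 summed to 675 CPM and library 2 to 859 CPM, and the wild-type libraries to 674 and 889 CPM. The heterozygous pair also differed most among the leaf pairs, with a chi-square of 5.50 per gene against 3.37 for wild type and 2.13 for homozygotes, where 1 would be sampling noise alone. By the SD of the log2 difference within a pair, over genes of at least 1 CPM, the pairs were more alike (0.235, 0.215 and 0.201 in that order).

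Few genes passed the test with 1 dose, and most of those that did were higher, a balance that did not hold without heterozygote library 1 (283 higher and 345 lower). Of 22071 genes tested, 32 (0.145%) were called at an adjusted p under 0.05 by edgeR's quasi-likelihood test, 28 higher (0.127%) and 4 lower (0.0181%). Among the higher genes were the KNOX genes kn1, lg3 and lg4, the lateral organ gene yabby15, the growth coactivator gene GIF1, the silicon channel gene Lsi1, the defence metabolite gene bx1 and the transcription factor gene MYB59. The other 24 called genes have no name in the reference table. Of the genes called higher, 14 rose at least 2-fold, and 1 of the 4 called lower fell at least 2-fold. The median absolute log2 fold change of the called genes was 0.87, and the smallest was 0.34. At an unadjusted p under 0.05 there were 1561 genes (7.07%), 752 higher and 809 lower. In bulk tissue, fewer cells with a transcript and less transcript per cell cannot be told apart.

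**Figure D1:**
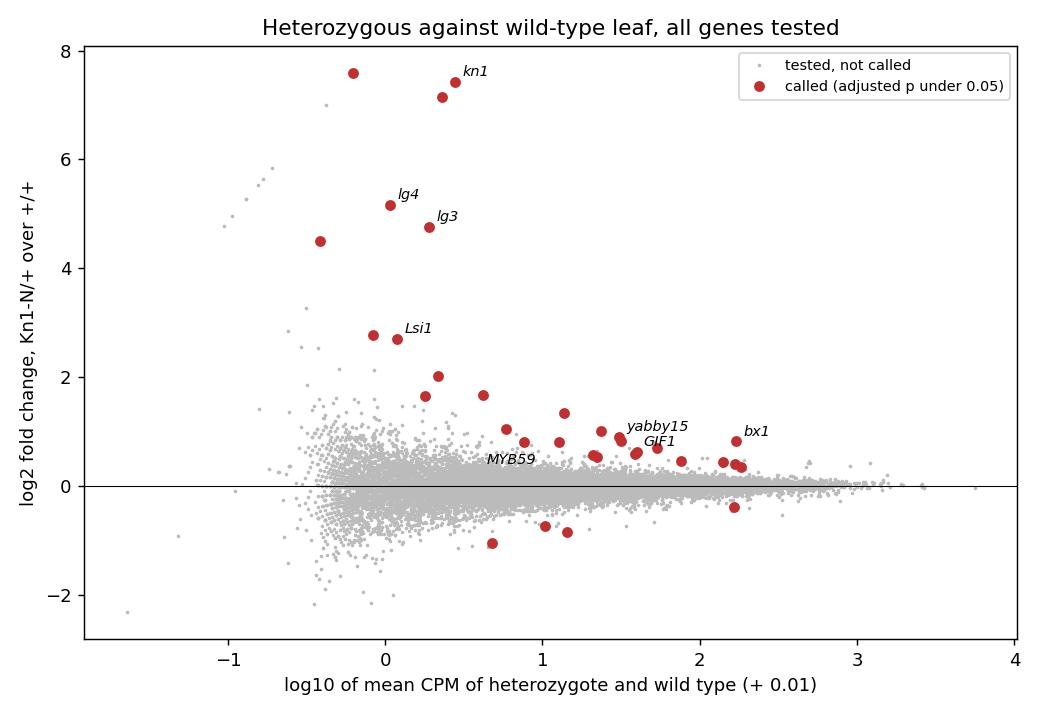
Log2 fold change of Kn1-N/+ over +/+ leaf for each of the 22071 genes tested (points), against the log10 of its mean CPM in the 4 libraries; red points are the 32 called genes, with the names of those that have one. The 28 red points above 0 include kn1, lg3 and lg4 near the top left, where wild-type counts were near 0, and 4 lie below 0.

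The number of calls rested on single libraries. It was 628 without heterozygote library 1 and 37 without heterozygote library 2. Without wild-type library 1 or 2 it was 8 and 13, and 24 of the 32 genes were lost in each case. In these fits the lone library is assumed to vary like the other groups. In all 12 alternatives run, 8 genes passed: kn1, lg3, lg4, yabby15, GRMZM2G087267, GRMZM2G043242, GRMZM2G007953 and GRMZM2G113332. The other 24 kept their direction in every alternative and lost the call in at least 1.

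The KNOX genes gave the largest changes of named genes. kn1 (GRMZM2G017087) had 103 and 126 counts in the heterozygous libraries, 1 and 0 in wild type, and 162 and 223 in homozygotes. Wild-type leaf was thus at or next to 0, both heterozygous libraries were far above it, and the homozygous libraries lay higher still. The ratio of summed counts over wild type was 214 (95% exact interval 37.9 to 8471, covering counting error only). The adjusted p was 7.7e-06. lg3 (GRMZM2G087741), a KNOX gene known from dominant Liguleless mutants, had 80 and 72 counts in heterozygotes, 4 and 1 in wild type, and 81 and 115 in homozygotes. The heterozygous and wild-type libraries did not overlap, and its log2 fold change was 4.77 ± 0.39 (adjusted p = 6.4e-05). lg4 (GRMZM2G094241), another KNOX gene of that kind, had 39 and 47 counts in heterozygotes, 1 and 1 in wild type, and 40 and 43 in homozygotes. Here the heterozygous and homozygous libraries overlapped, and both stood well above wild type. Its ratio of summed counts over wild type was 40.1 (95% exact interval 10.8 to 336.4, adjusted p = 0.00037).

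The KNOX genes knox6 and knox7 were also tested. knox6 (GRMZM2G370332) held 28.5 and 24.99 CPM in heterozygotes and 26.6 and 24.8 CPM in wild type (0.06 ± 0.09, adjusted p = 0.93). knox7 (GRMZM2G433591) held 32.3 and 33.7 CPM against 33.5 and 30.6 CPM in wild type (0.04 ± 0.08, adjusted p = 0.94). In both genes the libraries of the 2 genotypes overlapped. knox3, knox8, gnarley1 and HB39 did not reach the count filter, with 0 to 6 counts in each heterozygous or wild-type library. kn1, lg3 and lg4 passed that filter only through the mutant libraries and so could hardly have fallen, and 8 called genes in all passed it in this way.

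Among regulators of leaf growth, yabby15 and GIF1 rose. YABBY proteins are transcription factors of lateral organs. yabby15 (GRMZM2G529859) held 39.2 and 41.2 CPM in heterozygotes and 21.4 and 21.5 CPM in wild type, and 53.3 and 52.7 CPM in homozygotes. The 3 genotypes did not overlap, and the rise from wild type to heterozygote was 0.91 ± 0.07 (adjusted p = 6.4e-05). It was the 1 of 7 tested YABBY genes that was called. The list median was 0.32, beside 0.00 over all genes tested, and 4 of the 7 had an unadjusted p under 0.05, all higher (over all genes tested, 3.41% were higher and 3.67% lower at that p). YAB5 (GRMZM2G116646) held 16.9 and 17.4 CPM against 11.9 and 12.9 CPM in wild type, with no overlap, and was not called (0.47 ± 0.10, adjusted p = 0.14). yab10 (GRMZM2G167824) differed by 0.33 ± 0.11 and was not called (adjusted p = 0.55).

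GIF1 (GRMZM2G180246) encodes a coactivator that binds growth-regulating factors (GRFs), transcription factors that promote cell proliferation in leaves. It held 44.1 and 52.1 CPM in heterozygotes, 30.9 and 31.4 CPM in wild type, and 71.2 and 73.0 CPM in homozygotes. The heterozygous libraries lay between the others without overlap, and the rise was 0.63 ± 0.08 (adjusted p = 0.0059; 0.20 at the highest, without a wild-type library). It lies close to kn1 on the chromosome, as described below. Of 17 genes of the GRF and GIF list tested it was the 1 called, and the list median was 0.06. GRF12 (GRMZM2G119359) held 21.2 and 25.1 CPM against 14.5 and 17.3 CPM, and GRF2 (GRMZM2G099862) 35.2 and 41.4 CPM against 29.8 and 30.1 CPM. Neither pair of groups overlapped, and neither gene was called (adjusted p = 0.12 and 0.23).

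**Figure D2:**
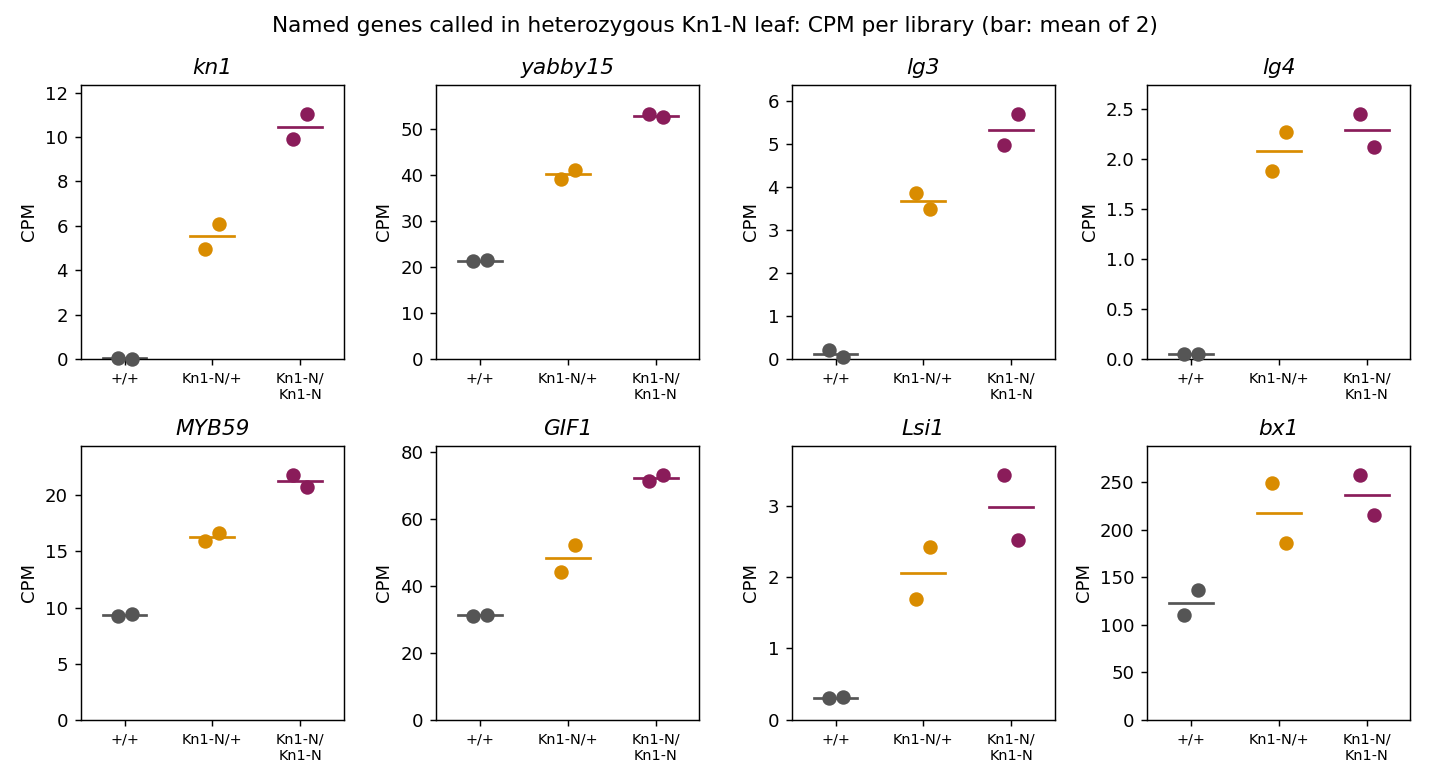
CPM in each leaf library (points; bar, mean of 2) for the 8 named genes called in heterozygotes, in +/+, Kn1-N/+ and Kn1-N/Kn1-N leaf, each axis starting at 0. Heterozygous points lie above wild type in every panel; for lg4 and bx1 they overlap the homozygous points, and for yabby15 and GIF1 they lie between the other genotypes.

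Other named genes also rose. MYB59 (GRMZM2G130149), a MYB transcription factor gene, held 15.9 and 16.6 CPM in heterozygotes and 9.23 and 9.38 CPM in wild type (0.80 ± 0.10, adjusted p = 0.0041). Lsi1 (GRMZM2G028325), which in rice encodes a silicon channel of the aquaporin family, had 35 and 50 counts in heterozygotes and 6 and 6 in wild type (2.71 ± 0.40, adjusted p = 0.014). Neither gene's groups overlapped, and neither was called without a wild-type library (adjusted p up to 0.13 and 0.32). No other aquaporin gene among the 18 tested was called. The tested members had a median of -0.05, and PIP2-4 (GRMZM2G154628) held 28.6 and 19.6 CPM against 32.8 and 34.6 CPM in wild type (-0.48 ± 0.13, adjusted p = 0.32).

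bx1 (GRMZM2G085381) makes indole in the first step of benzoxazinoid synthesis, a defence pathway of grasses. It held 249 and 186 CPM in heterozygotes and 110 and 137 CPM in wild type, with no overlap, though the libraries of each pair differed. The rise was 0.82 ± 0.13 (adjusted p = 0.019), and it was not called by DESeq2 or without a wild-type library (adjusted p up to 0.45). The next steps of the pathway are carried out by 4 cytochrome P450 enzymes, named here after their values were seen. bx2 (GRMZM2G085661) differed by 0.47 ± 0.12, BX3 (GRMZM2G167549) by 0.45 ± 0.10, BX4 (GRMZM2G172491) by 0.41 ± 0.10 and BX5 (GRMZM2G063756) by 0.41 ± 0.10. None was called, and all had an unadjusted p under 0.05, the smallest among uncalled genes of the defence list. Other BX genes of that list, bx8, bx9 and BX14, differed by 0.15 ± 0.10, 0.04 ± 0.08 and -0.04 ± 0.23, and were not called. Over the 47 tested genes of that list 1 was called and the median was 0.04.

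Hormone, cell cycle and cell wall genes gave no call. Only 0.145% of all genes tested were called, so lists of this size would seldom hold one. The auxin genes ARF23 (GRMZM2G441325) and PIN1a (GRMZM2G098643) lay just outside the threshold. ARF23, an auxin response factor gene, held 36.2 and 35.2 CPM in heterozygotes and 27.4 and 26.1 CPM in wild type (0.42 ± 0.07, adjusted p = 0.053). PIN1a, an auxin efflux carrier gene, held 54.9 and 52.4 CPM against 42.7 and 40.03 CPM (0.37 ± 0.07, adjusted p = 0.056). The last gene inside it, GRMZM2G060369, had an adjusted p of 0.047. Both auxin genes' groups were apart, as were those of 7501 genes (34.0%) of all tested. BIF4 (GRMZM5G864847), an Aux/IAA gene of inflorescence meristems, held 2.12 and 2.62 CPM against 0.863 and 1.21 CPM (adjusted p = 0.16). Over 51 tested auxin genes 0 were called, 7 were higher and 3 lower at an unadjusted p under 0.05 (3.41% and 3.67% of all genes tested), and the median was 0.04. an1 (GRMZM2G081554), whose enzyme begins gibberellin synthesis, held 8.16 and 11.8 CPM against 5.07 and 5.97 CPM in wild type (0.85 ± 0.18, adjusted p = 0.12).

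Among 50 cell cycle and DNA replication genes 0 were called, 10 were higher and 0 lower at an unadjusted p under 0.05, beside 3.41% higher and 3.67% lower over all genes tested. Their median was 0.06, and it stayed above 0 in all 12 alternatives (0.03 to 0.09). The D-type cyclin gene cycD4 (GRMZM2G133413) held 35.8 and 40.1 CPM against 29.4 and 29.5 CPM (adjusted p = 0.14). wee1 (GRMZM5G878541), which encodes a kinase that holds back entry into mitosis, held 51.0 and 51.4 CPM against 43.6 and 41.6 CPM (adjusted p = 0.26). Among 34 cell wall and expansin genes 0 were called, while 28 lay below 0 (10871 of all 22071 genes tested). At an unadjusted p under 0.05, 7 of the 34 were lower and 1 higher. The list median was -0.13 (-0.21 to -0.04 over the alternatives). CslF6-1 (GRMZM2G110145), a gene for mixed-linkage glucan synthesis, held 162 and 129 CPM against 172 and 176 CPM (-0.26 ± 0.08, adjusted p = 0.51). The medians of both lists were nearest to 0 without heterozygote library 2 and farthest without heterozygote library 1. Heterozygote library 1 over library 2 had a median log2 ratio of -0.05 in the cell cycle list and 0.13 in the cell wall list. Other scaling moved the median of all genes from 0.00 to at most -0.01.

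**Figure D3:**
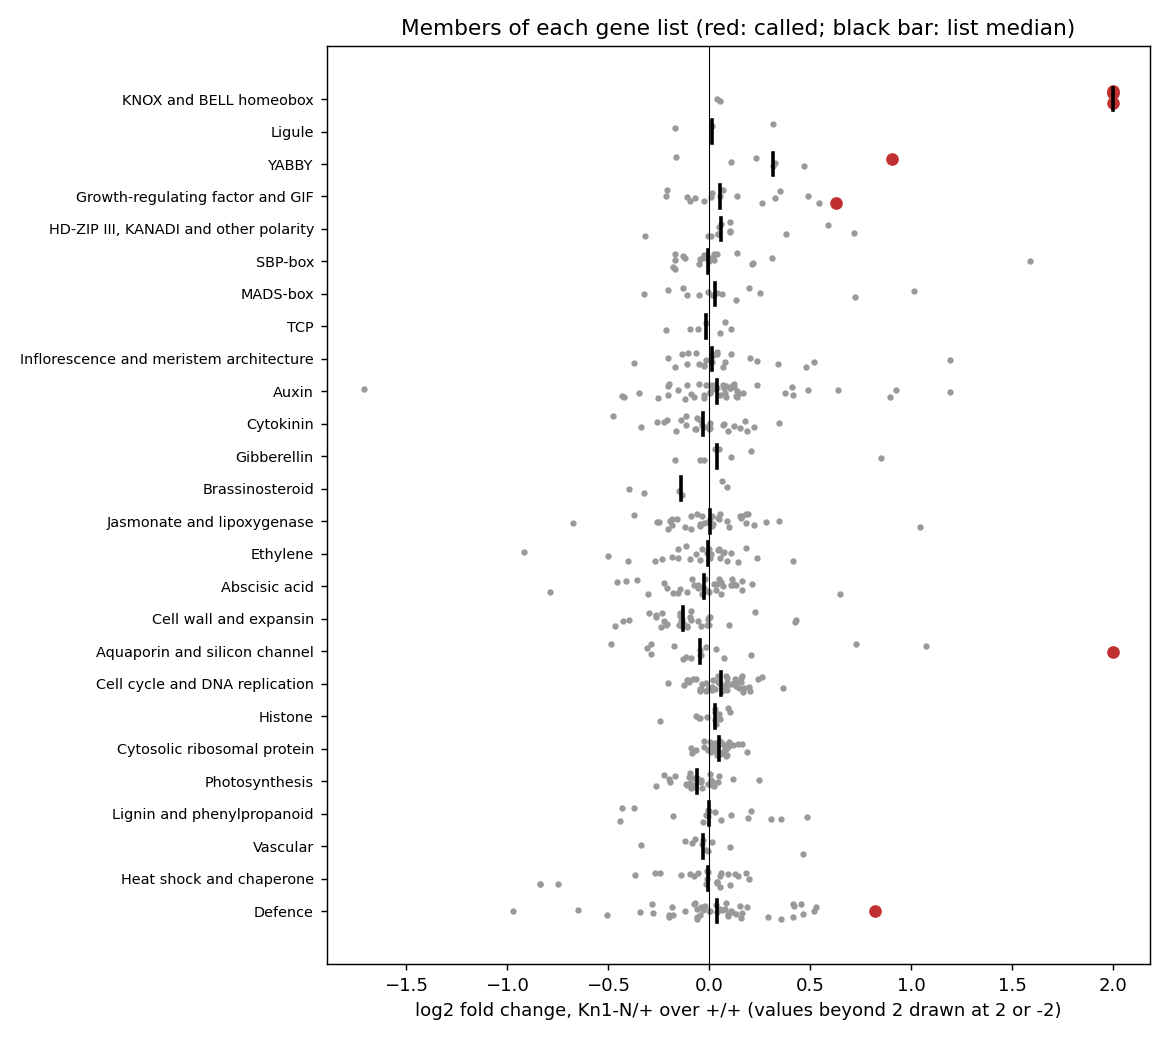
Log2 fold change of Kn1-N/+ over +/+ leaf for the tested members of 26 gene lists (points; red, called; black bar, list median; values beyond 2 are drawn at 2). The red points lie in the KNOX, YABBY, GRF and GIF, aquaporin and defence lists, and the other lists hold none.

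The 24 called genes without a name include the least and some of the more abundant of the called genes. In heterozygotes GRMZM2G166413 held 0.773 and 0.678 CPM and GRMZM2G140996 held 199 and 207 CPM. GRMZM2G087267 had 84 and 104 counts in heterozygotes, 0 and 1 in wild type, and 120 and 155 in homozygotes, an order like that of kn1. Its ratio over wild type was 175 (95% exact interval 31.1 to 6961, adjusted p = 1.2e-05). GRMZM2G043242 held 20.7 and 18.5 CPM against 7.87 and 7.60 CPM in wild type (1.34 ± 0.11, adjusted p = 6.4e-05). GRMZM2G113332 held 32.1 and 30.8 CPM against 13.2 and 18.0 CPM (1.01 ± 0.11, adjusted p = 0.0016), and 58.4 and 63.6 CPM in homozygotes. All 4 genes called lower are without a name. GRMZM2G077015 held 11.7 and 8.91 CPM in heterozygotes and 17.8 and 19.2 CPM in wild type (-0.84 ± 0.13, adjusted p = 0.019). In homozygotes it was at 1.96 and 1.68 CPM. GRMZM2G045849 (-0.75 ± 0.12), GRMZM2G147849 (-0.39 ± 0.06) and GRMZM2G130173 (-1.05 ± 0.18) had adjusted p-values of 0.024, 0.024 and 0.035. None of these 4 was called without a wild-type library.

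One gene was counted in heterozygotes and in hardly any other library. GRMZM2G116592 had 25 and 26 counts in the heterozygous libraries and 0 in both wild-type and both homozygous libraries. Over all libraries other than the heterozygous pair it had 3 counts, 1 in each of 3 libraries. Against a floor of 3 counts for the wild-type pair it was at least 15.8-fold higher (adjusted p = 0.0097). It was the 1 gene with at least 10 counts in both heterozygous libraries and 0 in the other 4 leaf libraries, and no gene showed the opposite order. Its call was lost without either wild-type library (adjusted p up to 0.23).

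For all but 2 of 31 called genes, the heterozygote lay between wild type and homozygote. In CPM the heterozygous mean stood 59.4% of the way (median over the 31 called genes other than GRMZM2G116592), where 0% is wild type and 100% the homozygote. The position was below 40% for 5 genes, 40 to 60% for 12, 60 to 100% for 12 and above 100% for 2. kn1 itself was at 52.8%, yabby15 at 59.4%, GIF1 at 41.5%, lg3 at 68.3%, bx1 at 83.2% and lg4 at 90.7%. The genes above 100% were GRMZM2G032619 and GRMZM2G147390. GRMZM2G032619 held 7.10 and 5.52 CPM in heterozygotes, 4.29 and 4.497 CPM in homozygotes and 1.88 and 2.10 CPM in wild type. Its heterozygous libraries were the highest, but the difference from homozygotes was not called (-0.52 ± 0.17, adjusted p = 0.10). These positions use the wild-type and heterozygous libraries that selected the genes and are a description.

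The difference between the doses was called for 1049 genes (4.75%), of which 361 were higher and 688 lower in homozygotes. kn1 was higher in homozygotes by 0.92 ± 0.16 (adjusted p = 0.0053), yabby15 by 0.40 ± 0.07 (adjusted p = 0.0054) and GIF1 by 0.58 ± 0.08 (adjusted p = 0.0010). lg3 (0.54 ± 0.19, adjusted p = 0.13), lg4 (0.13 ± 0.24, adjusted p = 0.81) and bx1 (0.12 ± 0.12, adjusted p = 0.63) did not pass. A missed threshold does not show that their levels at both doses were alike. Leaving out homozygote library 1 gave 253 calls and library 2 gave 166. Leaving out heterozygote library 1 gave 559, and library 2 gave 3105.

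Against the log-scale midpoint of wild type and homozygote, 19 genes (0.0861%) were called, 18 above it and 1 below. This test uses the same 6 libraries. A gene that rises or falls in equal CPM steps lies above a log midpoint by construction, most of all where one end is near 0. The riser kn1 did so (3.25 ± 0.32, adjusted p = 0.0020). So did the faller GRMZM2G077015, with means of 18.5 CPM in wild type, 10.3 CPM in heterozygotes and 1.82 CPM in homozygotes. The split of 18 to 1 is thus tilted in advance. Genes that were not called against wild type were among the 19, and those given here were named after their values were seen. The aquaporin gene pip2c (GRMZM2G081192) had 506 and 366 counts in heterozygotes, 510 and 500 in wild type, and 109 and 123 in homozygotes. GRMZM2G353469 had 46 and 38 counts in heterozygotes, 63 and 49 in wild type, and 0 in both homozygous libraries. In both genes the heterozygous libraries were far above the homozygous ones. For GRMZM2G353469 a homozygous level of 0 has no log, so its midpoint rests on how the fit treats 0. The 1 gene below the midpoint, GRMZM2G020940, held 203 CPM in heterozygotes, 183.5 CPM in wild type and 401 CPM in homozygotes on average. This count was unstable, at 0 without wild-type library 2 and 270 without heterozygote library 2.

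Genes next to kn1 held a larger share of low p-values than the rest. Genes were ordered by their place in the reference assembly, and 14807 tested genes had one. Among the 25 on each side of kn1, 2 of 50 were called (4%, beside 0.162% of all placed genes), namely GIF1, 15 genes from kn1, and GRMZM2G147849, 20 genes from it. At an unadjusted p under 0.05 there were 17 of these 50 (34%), 15 lower and 2 higher, against 7.44% of all placed genes. The share was 20% within 50 genes on each side, 13% within 100, and 6.95% of 2128 genes farther away on the same chromosome. Among the lower genes, GRMZM2G028500 differed from wild type by -0.70 ± 0.15 and GRMZM2G143142 by -0.91 ± 0.35, and neither was called. By DESeq2 the share was 22% near kn1 against 2.68% of placed genes. Without 1 library it was 24% to 36%, and the lowest, without heterozygote library 1, stood beside 18.6% of placed genes, against 5.32% to 6.47% in the other such fits.

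The same 50 genes were read in the kn1-e1 comparisons, which share no library with leaf. At an unadjusted p under 0.05 there were 19 of 45 tested in tassel (42.2%, against 23.0% of all placed genes), 25 of 48 in ear (52.1% against 33.5%) and 10 of 42 in the SAM (23.8% against 4.94%). The window thus held a raised share in each comparison of a kn1 allele with its control. Effects of kn1 and of other sequence that comes with the mutant chromosome cannot be told apart for these genes, GIF1 included.

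**Figure D4:**
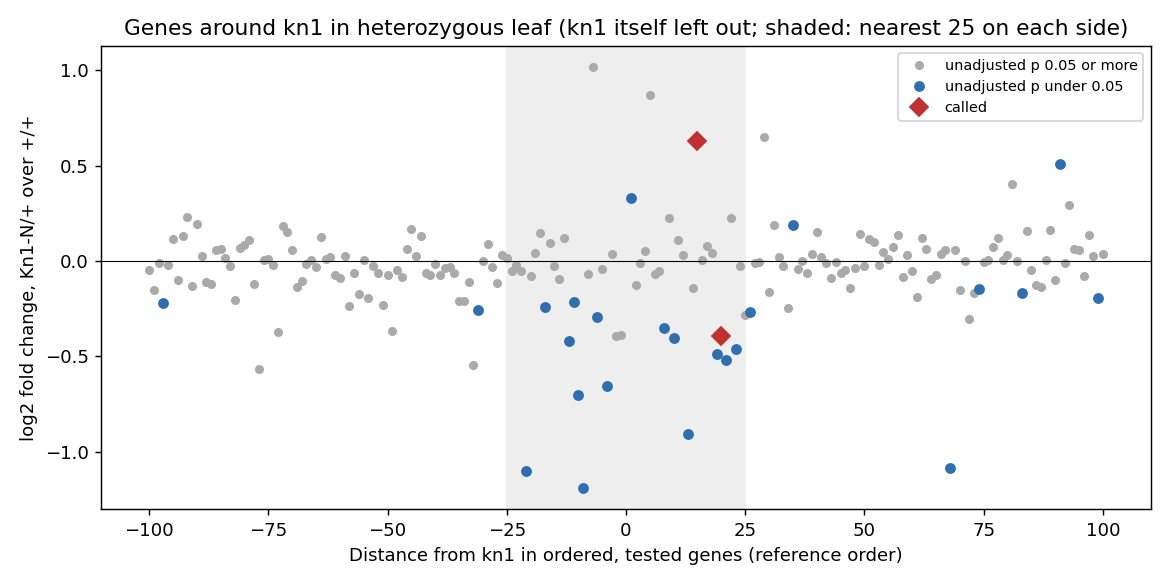
Log2 fold change of Kn1-N/+ over +/+ leaf (vertical) for tested genes within 100 places of kn1 in the reference order (horizontal, kn1 left out), grey where the unadjusted p was 0.05 or more, blue where under it, red diamonds where called. Of the 50 genes in the shaded window, 17 are blue or red, 15 of them below 0.

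The genes that rose with 1 dose of Kn1-N were then read where kn1 activity was lost. Homozygous kn1-e1 tassels, ears and SAMs were each compared with their own controls. Of the 28 genes higher in heterozygous leaf, 26 were tested in tassel, and 12 were lower in the mutant and 1 higher, where 5.55% of all genes tested were lower and 2.34% higher. In ear 25 were tested, 15 lower and 2 higher, where 10.4% of all genes tested were lower and 8.21% higher. In the SAM 25 were tested, 2 lower and 0 higher, where 0.120% of all were lower and 0.0434% higher. kn1 itself is among the lower genes in each tissue. Of the 4 genes lower in leaf, 2 of 3 tested were lower in tassel and 2 of 3 in ear. Without 1 library the tassel number was 11 to 13. The ear number moved more, in fits that left 1 library in a group. The share over all genes was not recorded in these fits, so a general change in calls cannot be told apart.

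GRMZM2G157727 was the 1 gene besides kn1 that was higher in heterozygous leaf and lower in all of the kn1-e1 tissues. It held 51.2 and 41.7 CPM in heterozygous leaf and 31.7 and 30.2 CPM in wild type (0.59 ± 0.09, adjusted p = 0.019). In kn1-e1 it changed by -1.30 ± 0.07 in tassel (adjusted p = 1.1e-06), -1.80 ± 0.07 in ear (adjusted p = 5.9e-09) and -2.48 ± 0.15 in the SAM (adjusted p = 6.2e-06). Its leaf call was lost without a wild-type library or without the homozygotes (adjusted p up to 0.32). yabby15 fell in tassel (-0.42 ± 0.06, adjusted p = 0.00063) and in ear (-0.44 ± 0.06, adjusted p = 0.00023), and in the SAM it differed by 0.11 ± 0.11 (adjusted p = 0.96). lg4 fell in ear (-0.55 ± 0.08, adjusted p = 0.00041) and MYB59 fell in ear (-0.74 ± 0.09, adjusted p = 0.00017). Lsi1 fell in tassel (-0.88 ± 0.18, adjusted p = 0.0095), as did bx1 (-2.96 ± 0.27, adjusted p = 3.8e-05). lg3 and GIF1 passed in none of the tissues, with adjusted p-values from 0.32 to 0.98. GRMZM2G163406 went 2 ways, lower in tassel (-0.42 ± 0.04, adjusted p = 0.00013) and higher in ear (0.39 ± 0.06, adjusted p = 0.00088).

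**Figure D5:**
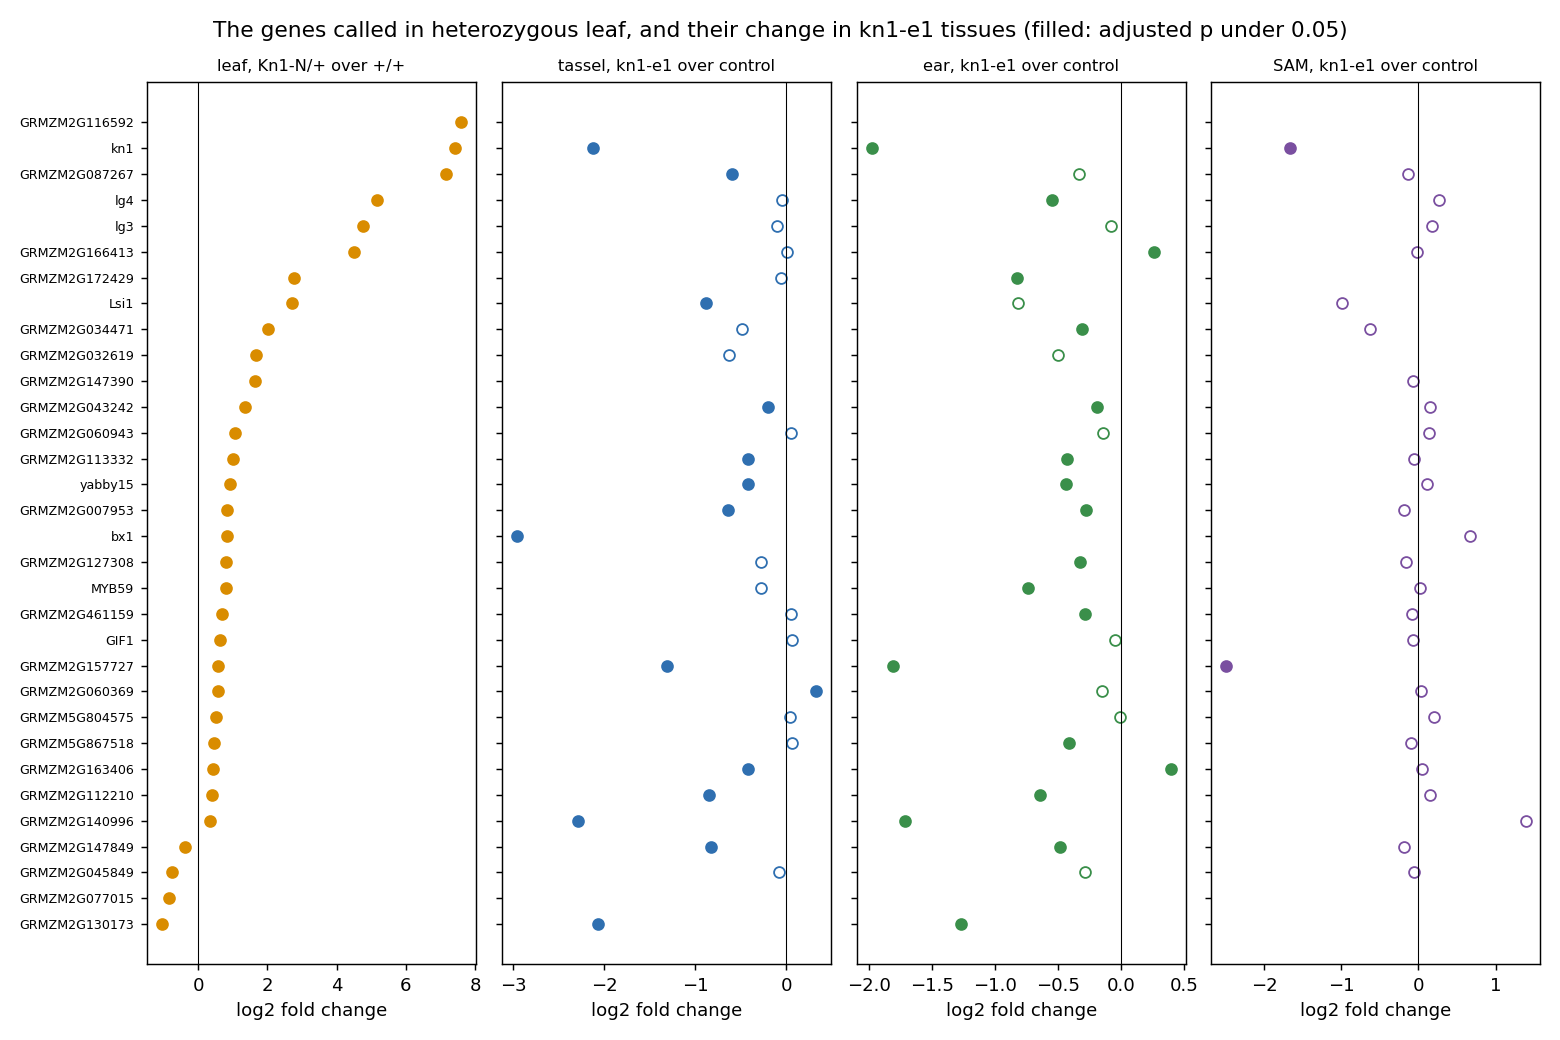
Log2 fold change of the 32 genes called in heterozygous leaf (first panel, Kn1-N/+ over +/+) and of the same genes in kn1-e1 over control tassel, ear and SAM (filled, adjusted p under 0.05; a missing point was not tested), each panel with its own axis. Filled points left of 0 include 12 of the 28 leaf-higher genes in tassel, 15 in ear and 2 in the SAM.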

How the data were processed

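Per the labels, total RNA went into Illumina TruSeq RNA libraries; that kit marks no strand, so reads of genes overlapping on opposite strands are pooled. The authors deposited raw counts for 39656 genes, with a column for each library. The submitters' processing notes name CASAVA 1.8, TopHat 1.2.0, HTSeq and DESeq 1.4.1 without roles, and the genome build was not given in the sources used here.

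All 6 leaf libraries were fitted together with edgeR 4.0.16 in R 4.3.3 by its quasi-likelihood F test. Scaling used TMM. The function filterByExpr kept genes with the CPM equivalent of 10 counts in at least 2 libraries, the size of a genotype group, and 15 counts in total. There were 3 residual degrees of freedom. Benjamini-Hochberg adjustment covered all genes tested, and genes were called at 0.05. Standard errors (±) were derived from the log2 fold change and F, so they are approximate. Each kn1-e1 tissue had a fit of its own. The fit was also run on simulated data as a check of the code, and its outcome is not used here. That simulation gave no gene or pair a spread of its own. It therefore cannot speak to the dependence on single libraries. For genes with 1 to 3 wild-type counts the report gives a count ratio and its exact 95% interval. RefSeq's table for assembly Zm-B73-REFERENCE-NAM-5.0 gave names and gene order only; 18774 IDs (47.3%) matched and 2681 had a name.

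Named genes were kn1 and the KNOX list (1 member is not reported here), every called gene, up to 3 members with the smallest p of each other list, the 5 uncalled genes with the smallest p, and the 10 largest named uncalled changes. The members and lists were chosen with earlier results of these data known. Alternatives were library totals, RLE factors, no filter, 4 libraries only, a replicate block, DESeq2 1.42.0, and leaving out each library.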

Additional observations from a re-analysis of the deposited data

How the results depend on the processing

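Calls against wild type numbered 32, and 22 to 46 with library totals, RLE factors, no low-count filter, 4 libraries only, a replicate block or DESeq2. Leaving out 1 library gave 8 to 628 such calls, 0 to 270 against the midpoint (19 with all) and 166 to 3105 between the doses (1049 with all). DESeq2 called 612 genes between the doses and gave 11 of 50 genes near kn1 at an unadjusted p under 0.05 (22%, against 2.68% of placed genes), beside 17 by edgeR (34% against 7.44%). The 8 (all higher) and 628 (283 higher and 345 lower) were without wild-type library 1 and heterozygote library 1, and the 0 midpoint calls, without wild-type library 2, stood beside 834 genes at an unadjusted p under 0.05. The cause of these shifts was not tested.

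Same-numbered libraries are not stated to share a batch, and the main fit did not pair them. Over all genes tested their deviations from group means correlated at 0.0774 (heterozygote and wild type), 0.00566 and -0.0363. Such values cannot show whether the libraries were paired. With the replicate block 46 genes were called against wild type, all 32 among them, 24 against the midpoint and 1483 between the doses.

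All 32 called genes kept their direction in each alternative. Direction changed only for 5 uncalled named genes, with 1 library left out: eks1 ranged from -0.059 to 0.54, TCP7 from -0.0021 to 0.16, TCP8 from -0.063 to 0.27, knox6 from -0.041 to 0.15 and knox7 from -0.025 to 0.11. Genes higher in heterozygous leaf and lower in kn1-e1 ear numbered 8 to 17 with 1 library left out (15 with all); those in tassel (11 to 13) and the SAM (2 to 3) stayed within 1.5 times. For the kn1-e1 fits with 1 library left out, the share over all genes was not recorded, so a general change in calls cannot be told apart. The alternatives near kn1 and in kn1-e1 tissues were chosen after seeing the data.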

Other observations

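The genes that rose with 1 dose had very different levels in the meristem tissues. On a CPM scale set over all 20 libraries, lg3 held 3.89 CPM in heterozygous leaf and 0.135 CPM in wild-type leaf, beside 149 CPM in control tassel, 96.8 CPM in control ear and 53.7 CPM in control SAM. lg4 held 2.20 CPM in heterozygous leaf, beside 35.3, 40.7 and 12.4 CPM in those tissues. Both KNOX genes, although far above wild-type leaf, were thus well below their level in meristems. GIF1 held 50.9 CPM in heterozygous leaf, beside 691, 490.5 and 562 CPM, and the unnamed gene GRMZM2G166413 held 0.767 CPM, beside 120, 100.1 and 34.1 CPM. Other risers were leaf genes. bx1 held 230.4 CPM in heterozygous leaf and 8.57 CPM or less in each control meristem tissue, and GRMZM2G140996 held 215 CPM and at most 2.96 CPM.

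Among named genes that were not called, some of the largest differences were in low-count genes. GST25 (GRMZM2G161905), a glutathione transferase gene, had 46 and 92 counts in heterozygotes and 15 and 42 in wild type (1.18 ± 0.49, adjusted p = 0.67). rbohD (GRMZM2G441541), which encodes an enzyme that makes superoxide, had 33 and 31 counts against 15 and 14 (1.04 ± 0.31, adjusted p = 0.41). Both came from a choice limited to an unadjusted p under 0.05 and to wild-type and heterozygous libraries that did not overlap. Such separation was seen in 34% of all genes tested.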
